A study of Mus musculus with 4 samples.

Results

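The Wnt pathway feedback genes Nkd1, Wif1, Notum, Axin2, Apc, Lef1, Tcf7 and Myc are inhibitors, transducers or targets of Wnt signalling. They were chosen by name, with earlier results of these data known. They were measured as 8 of the 16390 genes named on a mouse array, each by 1 probe, or by the brightest of its probes where it had several. All 8 were on the array, Notum under the older name 5730593N15Rik. RNA came from 4 samples of male mouse small intestine, with 1 array each, and every animal carried 1 copy of the Dclk1CreERT2 allele, in which a tamoxifen-dependent Cre sits at Dclk1, a gene of tuft cells. The Dclk1- and Dclk1+ tumor samples came from tumors of Dclk1CreERT2/+; ApcMin/+ mice, 1 animal aged 17 weeks and a pool of 7 animals older than 16 weeks. The Dclk1- and Dclk1+ normal samples came from normal epithelium of Dclk1CreERT2/+ mice without ApcMin, 1 animal and a pool of 2 animals, all aged 26 weeks. Per the labels, the Dclk1+ tumor cells were sorted for GFP, and the gates of the other 3 samples were not given in the sources used here.

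Wnt ligands bind Frizzled and Lrp receptors, which stops a cytoplasmic complex built on Apc and Axin from marking beta-catenin for destruction. Beta-catenin then enters the nucleus and turns on genes with the TCF factors Lef1, Tcf7, Tcf7l1 and Tcf7l2. Several of the genes it turns on are inhibitors of the same pathway, so that signalling limits itself. In the intestine this pathway maintains the crypts, and loss of Apc starts adenomas. The Min allele of Apc is a nonsense mutation, so the level of an Apc probe is no check of the genotype.

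A group is 1 array, so no difference below has a replicate check or a test, and each compares 2 samples rather than 2 conditions. Tumor and normal differ in genotype, histology, age, number of animals and array at once, and these cannot be told apart. Dclk1+ and Dclk1- samples differ in the cells sorted, the animals, their number and the array at once. In tumor the ages given differ too, and these cannot be told apart either. Levels are given in the intensities the authors deposited, in which each array is a straight line of its scanner signal. Between arrays they rest on the authors' scaling. Under it the median gene lay at -0.40 and -0.50 (log2) for tumor minus normal in Dclk1+ and Dclk1- cells. For Dclk1+ minus Dclk1- it lay at 0.35 in tumor and 0.27 in normal epithelium. In all 4 comparisons a ratio of 1 is thus not the level of a typical gene. The error given with these levels is the spot noise within an array, from 2736 blank spots, whose SD was 1.32 to 1.47 in these units. Blank spots hold no signal, so limits from this noise leave out errors that grow with signal and errors of scaling between arrays. A probe was above background where its spot exceeded the mean of the blanks by 2 SD, which 63.3% to 70.9% of the probes did on an array. Differences are log2 values after background correction with an offset of 50 and quantile normalization, and this offset shrinks the differences of dim genes. Genes with more than 1 probe showed how far probes of a gene differ: the SD between them was 0.51 and 0.71 for tumor minus normal in Dclk1+ and Dclk1- cells, and 0.39 and 0.79 for Dclk1+ minus Dclk1- in tumor and in normal epithelium.

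All 11 epithelial markers on the array were above background on all 4 arrays, but most were dimmer in tumor. Their sum in tumor and normal was 16275 against 50742 in Dclk1+ cells and 15994 against 63107 in Dclk1- cells. Krt19 went the other way in both (6.89 against 3.47 and 6.54 against 5.63), and so did Krt20 in Dclk1+ cells (463 against 428). Of these 11, 6 were at least 2-fold lower in tumor in Dclk1+ and 7 in Dclk1- cells, and 0 were higher. Their medians were -1.08 and -1.33. Over all genes, 4.20% were that much lower in Dclk1+ and 5.24% in Dclk1- cells. The summed intensity of 12 tuft cell markers was 18222 and 81821 in the Dclk1+ tumor and normal samples, against 422 and 403 in the Dclk1- ones. Dclk1 itself read 736 (Dclk1+) and 180 (Dclk1-) in the normal samples, and 61.8 (Dclk1+) and 9.49 (Dclk1-) in the tumor samples, so it was brighter in a Dclk1- sample than in a Dclk1+ sample of the other tissue. In a bulk sample, fewer cells of a type and less RNA per cell cannot be told apart.

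The inhibitors Nkd1, Wif1 and Notum, were at least 2-fold higher in tumor than in normal cells, in both Dclk1+ and Dclk1- cells. No member was 2-fold lower in either. In Dclk1+ cells these were 3 of the 7 members above background on either array, where 4.27% of 12869 genes were that much higher and 4.20% lower. In Dclk1- cells they were again 3 of 7, where 5.83% of 12340 genes were higher and 5.24% lower. The same 3 genes made up both counts. As the members were chosen with earlier results of these data known, the shares over all genes are a description and not a test. The median of the members was 0.30 in Dclk1+ and 0.42 in Dclk1- cells, against -0.03 and -0.02 over all genes tested. The median of the epithelial markers stood lower in the same tumor samples, and the part of the makeup of the samples in the members' differences was not tested.

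**Figure D1:**
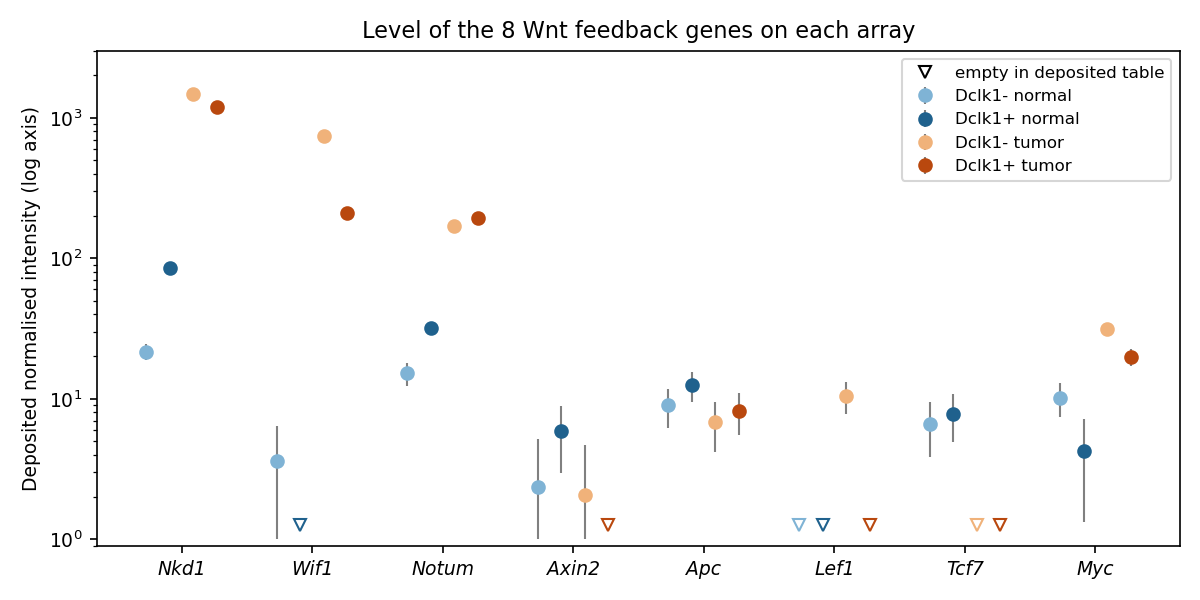
Deposited normalised intensity (log axis) of the 8 genes in the 4 samples, 1 array each. Bars are 2 SD of the blank spots of that array, cut at 1, and open triangles are cells left empty in the deposited table. Nkd1, Wif1 and Notum are at 169 or more in both tumor samples and at 85.3 or less in both normal samples, and the other 5 genes are at 31.2 or less everywhere.

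Secreted inhibitors come first in the pathway. Wif1 encodes a secreted protein that binds Wnt ligands outside the cell. Its deposited intensity was 743 in Dclk1- tumor and 209 in Dclk1+ tumor, against 3.60 in Dclk1- normal, and its cell was empty for Dclk1+ normal. Both tumor samples were bright and both normal samples lay at or near background. In Dclk1- cells the log2 difference was 3.76, or 13.6-fold, and the ratio of deposited intensities was 206, with limits of 115 and 961 when both values are moved by 2 blank SD. In Dclk1+ cells Wif1 was above background only in tumor and was at least 3.77-fold higher there, set against the lowest signal above background on the normal array.

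The Wif1 difference depended on how the area around the spot was treated. On the Dclk1- tumor array the Wif1 spot read 774 and the ring around it, its local background, read 776. The 8 spots next to it read 21.5 to 141, and their own local backgrounds were at most 108. On the Dclk1+ tumor array the spot read 160 and its ring 128. With local background subtracted, the log2 difference of Wif1 became -0.056 in Dclk1- and 0.61 in Dclk1+ cells. The surroundings of a spot rose with the spot over the whole array, with a correlation of log2 values of 0.921 to 0.979 across probes, which share the array. The cause of the bright ring was not tested.

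**Figure D2:**
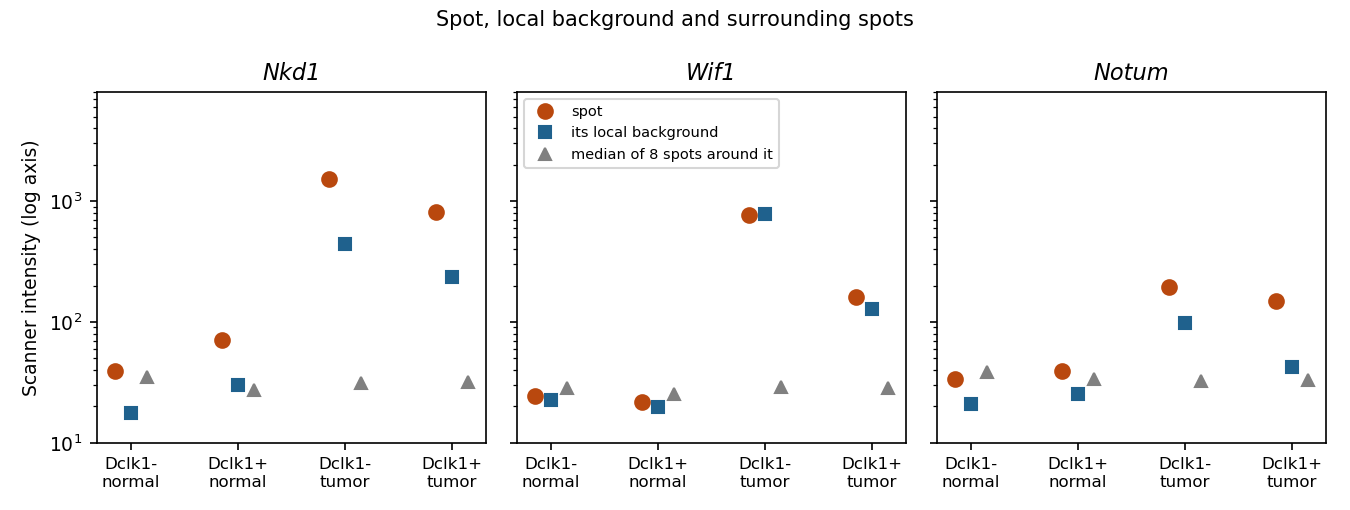
Scanner intensity (log axis) of the spot, its local background and the median of the 8 spots around it, for 3 genes in the 4 samples. For Wif1 in the tumor samples the local background lies at the level of the spot or just under it, 776 against 774 and 128 against 160, while for Nkd1 it stays well below the spot.

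Notum encodes a secreted enzyme that removes the lipid from Wnt ligands and so inactivates them. Its brighter probe read 169 (Dclk1-) and 194 (Dclk1+) in the tumor samples, and 15.2 (Dclk1-) and 32.0 (Dclk1+) in the normal samples. The tumor samples were alike and both stood above both normal samples. The log2 differences were 1.40 in Dclk1+ and 1.64 in Dclk1- cells, and the ratios of deposited intensities were 6.06 (limits 5.48 and 6.77) and 11.1 (limits 9.22 and 13.9). Its second probe was at 8.02 and 8.35 in the Dclk1- and Dclk1+ tumor samples, at 2.82 in Dclk1+ normal and empty in Dclk1- normal, and was above background on 2 arrays. Averaging both probes lowered the log2 differences to 0.76 and 0.91, below the 2-fold mark. A spot next to the brighter Notum probe was very bright on every array, at 3593 (Dclk1+ tumor) to 8298 (Dclk1- normal). On the Dclk1- and Dclk1+ tumor arrays the Notum spot read 194 and 150 and its ring 97.2 and 42.7. On the normal arrays its ring read 21.0 (Dclk1-) and 25.3 (Dclk1+). With local background subtracted, the log2 differences of tumor minus normal were 1.38 in Dclk1+ and 1.37 in Dclk1- cells. The part of the bright neighbour in the Notum signal was not tested.

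Nkd1 acts inside the cell, where it binds Dishevelled and restrains the signal from the receptors. It was at 1484 in the Dclk1- and 1191 in the Dclk1+ tumor sample, against 85.3 in the Dclk1+ and 21.7 in the Dclk1- normal sample. The 4 values were further apart than the blank noise in every neighbouring pair of that order, and the widest step lay between tumor and normal. Blank noise leaves out errors that grow with signal, so it cannot tell whether the tumor samples differed. The log2 difference was 3.16 in Dclk1+ cells, or 8.94-fold, and 4.43 in Dclk1- cells, or 21.6-fold. The ratios of deposited intensities were 14.0 (limits 13.5 and 14.5) and 68.4 (limits 60.4 and 78.8). Nkd1 stayed over 2-fold higher under all 8 other ways of processing, at 3.01 to 4.01 in Dclk1+ and 4.29 to 6.52 in Dclk1- cells.

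Promoter sequence is shown for Nkd1 and Wif1, the 2 members with the widest range across the samples. RefSeq promoters (GRCm38.p6) were at hand for 5 of the 8 members: Nkd1, Wif1, Axin2, Lef1 and Tcf7. Each stretch holds the 250 bases before the annotated start, 5′ to 3′ on the strand of the gene, at chr8:88527383-88527632 on the plus strand for Nkd1 and at chr10:121033754-121034003 on the plus strand for Wif1. Capitals mark CACGTG, the E-box letters that Myc with Max can bind.
Nkd1: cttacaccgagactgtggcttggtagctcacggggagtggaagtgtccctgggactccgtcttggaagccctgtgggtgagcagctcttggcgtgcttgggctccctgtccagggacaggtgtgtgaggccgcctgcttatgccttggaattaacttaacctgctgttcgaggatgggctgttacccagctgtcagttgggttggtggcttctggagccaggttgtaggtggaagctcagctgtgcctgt
Wif1: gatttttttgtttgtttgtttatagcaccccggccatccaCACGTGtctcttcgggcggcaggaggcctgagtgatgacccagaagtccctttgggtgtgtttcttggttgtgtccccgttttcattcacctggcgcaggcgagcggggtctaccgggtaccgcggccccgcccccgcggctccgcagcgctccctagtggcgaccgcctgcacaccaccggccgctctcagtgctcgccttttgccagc
The letters searched for TCF factors, on both strands, were CTTTGAA (held by 4.46% of 32851 such windows), CTTTGAT (held by 3.21%), CTTTGTA (held by 3.20%) and CTTTGTT (held by 5.03%), and 14.8% of the windows held at least 1 of them. Neither stretch held any. CACGTG reads the same on both strands, overlaps none of the TCF letters, and was in 6.02% of the windows. Wif1 held it once, 210 to 205 bases before the start, and Nkd1 did not hold it. Of the 9 windows of the 5 genes, 1 held TCF letters, that of the fourth annotated start of Lef1. These matches describe letters and not binding.

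The other cytoplasmic members were dim. Axin2, a scaffold of the destruction complex and a common readout of Wnt signalling, was above background only in Dclk1+ normal, at 5.90. It was at 2.06 in Dclk1- tumor and 2.37 in Dclk1- normal and was empty for Dclk1+ tumor. The log2 differences of tumor minus normal were -0.14 in Dclk1+ cells and 0.02 in Dclk1- cells. Axin2 was thus not well above background in either tumor sample, and a difference between them was not detectable.

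Apc, the core of the destruction complex, was above background on all 4 arrays. The highest value was 12.5, in the Dclk1+ normal sample, followed by 8.98 in Dclk1- normal, and the tumor samples were lower, with 8.23 for Dclk1+ and 6.84 for Dclk1-. The 2 blank SD ranges of neighbours in this order overlapped, although the normal samples differed from each other by more than 2 blank SD of either array. The tumor to normal ratio of deposited intensities was 0.660 in Dclk1+ cells (limits 0.358 and 1.15) and 0.762 in Dclk1- cells (limits 0.357 and 1.54). Both intervals include equal levels and the shift of the median gene. The log2 differences were -0.04 and 0.01.

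Lef1 and Tcf7 are TCF factors and are also strongly expressed in T cells. Lef1 was above background only in Dclk1- tumor, at 10.5, or 7.92 blank SD over the blanks, and was empty in the other 3 samples. Against Dclk1- normal it was at least 1.14-fold higher on the log2 scale. The summed fibroblast and smooth muscle markers were also highest in that sample, at 768 against 388 in the Dclk1+ tumor sample, with 10 of 13 markers above background in each. The normal samples had sums of 171 (Dclk1+) and 112 (Dclk1-), with 7 of 13 above background in each. Within that list Vim was at 343 in Dclk1- tumor and at 92.5, 22.2 and 15.2 in the others in the same order, while Pdgfrb ran the other way, at 38.1 in Dclk1- tumor and at 63.3, 88.5 and 50.2 in the others. Myh11 was lowest in Dclk1- tumor too, Col1a1 was empty there and listed in the other 3, and Tagln was below background on all arrays. The myeloid markers summed to 3593 in Dclk1- tumor and to 739 to 2227 in the others, with 8 to 10 of 12 above background. C1qb alone was 1813 of the 3593. Against Dclk1- normal, 6 of 10 markers were at least 2-fold higher and 0 lower, where 5.83% and 5.24% of genes were. Yet Csf1r (34.4) and Cd68 (26.9) were lowest in Dclk1- tumor, and Aif1 was highest in Dclk1+ normal (830 against 398). Itgam and Adgre1 were below background on all arrays. Wif1 was brightest in Dclk1- tumor too. The part of fibroblasts, muscle or myeloid cells in Lef1 or Wif1 was not tested.

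Tcf7 showed the opposite order: it was at 7.82 in Dclk1+ normal and 6.65 in Dclk1- normal and empty in both tumor samples. The normal values were 5.30 and 4.67 blank SD above the blanks. As the tumor values were below background, normal over tumor has only a bound on the log2 scale, at least 1.05-fold in Dclk1+ and at least 1.03-fold in Dclk1- cells. The summed T cell markers were higher in the same samples, at 268 in Dclk1- normal and 146 in Dclk1+ normal against 66.2 in Dclk1+ tumor and 46.9 in Dclk1- tumor, with 9, 8, 8 and 5 of 14 above background. Cd8a alone was at 126 and 67.1 in the Dclk1- and Dclk1+ normal samples and at 7.69 and 6.30 in the Dclk1- and Dclk1+ tumor samples, and Cd8a and Gzmb (84.3 and 31.6 in normal, 17.2 and 13.1 in tumor, in that order) made up most of the normal sums. Other markers went against this order: Zap70 (12.0) and Il7r (5.56) were listed only in Dclk1+ tumor, Cd2 was highest there at 9.48, and so was the median of the list, at 5.41 against 3.71 in Dclk1- normal and 3.50 in Dclk1+ normal. Cd3e and Cd5 were below background on all arrays. The part of T cells in the Tcf7 signal was not tested.

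Myc, a transcription factor that drives growth and a target of beta-catenin, was above background on all 4 arrays. The tumor samples were at 31.2 (Dclk1-) and 19.7 (Dclk1+), and the normal ones at 10.2 (Dclk1-) and 4.26 (Dclk1+). Both tumor samples were above both normal samples. The tumor to normal ratio of deposited intensities was 4.63 in Dclk1+ cells (limits 2.36 and 17.0) and 3.06 in Dclk1- cells (limits 2.20 and 4.59). On the log2 scale with the offset the differences were only 0.30 and 0.42, under the 2-fold mark, and with the blank mean subtracted they were 2.56 and 1.94.

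**Figure D3:**
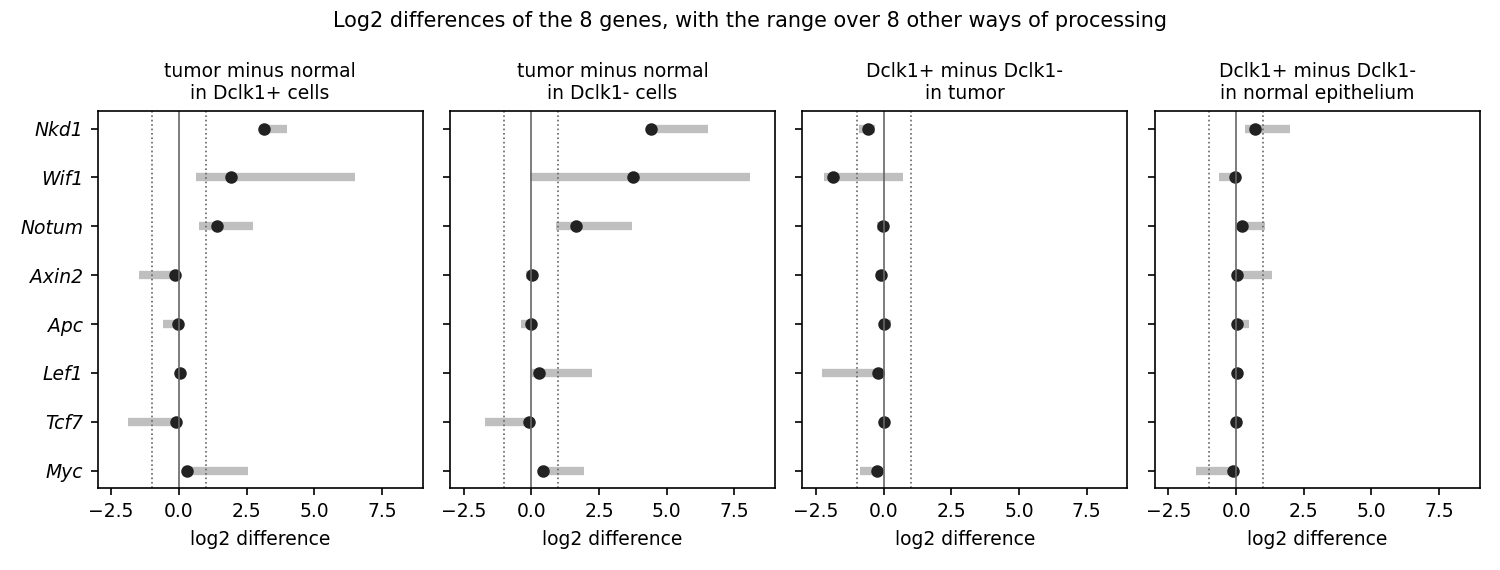
Log2 difference of each gene (x axis) in the 4 comparisons. Black points are the main values, grey bars the range over 8 other ways of processing, and dotted lines mark 2-fold. Nkd1 keeps to the right of 2-fold in both tumor comparisons, the bar of Wif1 reaches from -0.056 to 8.09 in Dclk1- cells, and that of Myc from 0.21 to 2.56 in Dclk1+ cells.

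Between Dclk1+ and Dclk1- tumor cells, Wif1 was the 1 member of 6 above background that was at least 2-fold apart. It was the dimmer in the Dclk1+ sample, with -1.87 on the log2 scale, and the deposited intensity was 3.56-fold higher in Dclk1- cells. Over all genes, 1.76% were that much higher and 2.13% that much lower in Dclk1+ tumor cells. With local background subtracted the Wif1 difference was 0.70, on the other side of 0. Notum differed by -0.01, Nkd1 by -0.57 and Myc by -0.24. In deposited intensities Myc was 1.58-fold higher in the Dclk1- tumor sample. The median of the members was -0.23, against 0.01 over all genes.

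In normal epithelium 0 of 7 members above background were 2-fold apart between Dclk1+ and Dclk1- cells, where 5.66% of genes were higher and 5.92% lower. At these dim levels the offset left little room for such a call. With the deposited values 3 members were higher and 1 lower, where 23.3% and 16% of genes were. Nkd1 came closest to 2-fold, at 0.71 on the log2 scale. Its deposited intensity was 3.93 times as high in Dclk1+ cells (limits 3.36 and 4.68). Notum had a ratio of 2.11 (limits 1.61 and 2.83) and Myc of 0.417 (limits 0.101 and 0.975). The median of the members was 0.05, against 0.01 over all genes.

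The wider pathway was read from lists of named genes, also chosen with earlier results of these data known. For the list counts of tumor against normal below, the shares over all genes are a description and not a test. They were 4.27% higher and 4.20% lower in Dclk1+ cells, and 5.83% higher and 5.24% lower in Dclk1- cells. Most ligands, receptors and transducers were within 2-fold between tumor and normal, but most were dim, and the offset left dim genes little room to differ. With empty cells counted as 0, the median deposited intensity of ligands, receptors and secreted regulators was 2.87 to 6.08 on an array. It was 2.25 to 9.75 for the nuclear partners and 13.1 to 17.7 for the cytoplasmic list. Medians near 0 therefore do not show that these genes were unchanged. The medians of the 5 lists from ligands to nuclear partners lay between -0.01 and 0.04 in Dclk1+ and between -0.04 and 0.03 in Dclk1- cells. Of the ligands and their export genes above background, 0 were higher and 1 lower of 14 in Dclk1+ cells, and 1 higher and 1 lower of 12 in Dclk1- cells. Wnt8a, a ligand, was the lower one in both, at -1.12 and -1.36. Wls, which carries Wnts to the cell surface, was at 1.28 in Dclk1- cells. Of the receptors, 1 of 14 and 1 of 13 were higher and 0 lower. This was Fzd6, a Frizzled receptor, at 167 against 26.5 in Dclk1+ and 252 against 11.7 in Dclk1- cells.

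Lgr5, the R-spondin receptor of crypt stem cells, was at 59.1 in Dclk1+ tumor against 26.4 in Dclk1+ normal, a log2 difference of 0.47. In Dclk1- cells it was at 60.3 in tumor and empty in normal, which made it at least 1.91-fold higher. Other secreted or membrane regulators had 0 of 14 and 1 of 12 higher and none lower in Dclk1+ and Dclk1- cells. The 1 was Dkk2, a secreted Wnt regulator, which was at 70.6 in Dclk1- tumor, was empty in Dclk1- normal and was at least 2.07-fold higher.

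In the cytoplasm, 1 of 18 genes was higher and 1 lower in Dclk1+ cells, and 1 was higher and 0 lower of 18 in Dclk1- cells. Csnk1e, a casein kinase of the pathway, was at 1.03 and Dvl1, a Dishevelled, at -1.51 in Dclk1+ cells, and Skp1, a part of a ubiquitin ligase, at 1.04 in Dclk1- cells. Ctnnb1, which encodes beta-catenin, was at 136 in tumor against 187 in normal in Dclk1+ cells (-0.22) and at 144 against 239 in Dclk1- cells (-0.46). Of the nuclear partners of the TCF factors, 0 were higher and 1 lower of 14 in Dclk1+ cells, and 3 were higher and 1 lower of 13 in Dclk1- cells. Tle5, a short member of the Groucho family, was lower in both, at -1.08 and -1.01. The higher ones were Smarca4, a chromatin remodeller (1.22), Ctbp1, a corepressor (1.08), and Chd8, a remodeller that binds beta-catenin (1.04). Tcf7l2 was below background on all 4 arrays.

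Many of these calls were close to the 2-fold mark and were lost with local background subtracted. In Dclk1+ cells 5 of the 15 genes called and named from the lists fell below 2-fold: Wnt8a (-0.25), Fzd6 (0.72), Csnk1e (0.87), Tle5 (-0.74) and, of the Myc targets, Tfrc (0.44). In Dclk1- cells 11 of 18 did. Wnt8a (-0.83), Wls (0.96), Dkk2 (0.84), Ctbp1 (0.99), Tle5 (-0.96), Chd8 (0.41) and Smarca4 (0.90) kept their direction, while Skp1 (-4.20) and the Myc targets Fbl (-4.08), Ppat (-0.43) and Mcm4 (-0.34) changed sign. Csnk1e also fell below 2-fold with either scaling to a percentile (0.97 and 0.95), Skp1 with scaling to the 75th percentile (0.98) and the deposited values (0.77), and Ctbp1 with the deposited values (0.93).

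Of 18 other Wnt target genes of the intestine, 7 were higher and 0 lower in Dclk1+ cells, where 4.27% and 4.20% of genes were. In Dclk1- cells 5 were higher and 2 lower of 18, where 5.83% and 5.24% of genes were. The medians of the list were 0.16 and 0.12. In Dclk1+ cells the 5 furthest apart were Mmp7, a matrix protease also made by Paneth cells (6.60), Ccnd2, a D cyclin (3.94), Ets2, a transcription factor (2.32), Birc5, an inhibitor of apoptosis that acts in mitosis (1.75), and Slc12a2, an ion cotransporter (1.67). In Dclk1- cells they were Mmp7 (4.47), Slc12a2 (1.94) and Ets2 (1.76) on the higher side and the crypt receptors Ephb3 (-2.60) and Ephb2 (-1.60) on the lower side. The summed Paneth cell markers, which include Mmp7, were 14542 and 157 in Dclk1+ tumor and normal, and 21338 and 4707 in Dclk1- tumor and normal, with 5, 3, 5 and 5 of 5 above background. Mmp7 itself made up most of the tumor sums, at 11241.5 (Dclk1+) and 11730.9 (Dclk1-), against 48.9 and 607 in the normal samples. The sums are thus not separate from Mmp7, but other markers of the list were higher in tumor too. With Mmp7 counted, 4 of 5 were at least 2-fold higher in Dclk1+ and 3 of 5 in Dclk1- cells, and 0 were lower. Defa5 was at 1078 in tumor against 11.2 in normal in Dclk1+ cells, and at 4637 against 826 in Dclk1- cells. The part of Paneth cells in the Mmp7 values was not tested.

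Genes known as Myc targets had medians of 0.53 in Dclk1+ and 0.63 in Dclk1- cells. Over all genes, 4.27% were higher and 4.20% lower in Dclk1+ cells, and 5.83% and 5.24% in Dclk1- cells. Of the Myc targets, 7 of 19 were higher in Dclk1+ cells and 4 of 20 in Dclk1- cells, and 0 were lower in both. In Dclk1+ cells these included Npm1 (1.97) and Fbl (1.63), which act in ribosome assembly, Srm of polyamine synthesis (1.59), Nme1, a nucleotide kinase (1.53), and Tfrc, the transferrin receptor (1.52). In Dclk1- cells they were Ppat of purine synthesis (2.85), Ncl of the nucleolus (1.81), Mcm4 of the replication helicase (1.72) and Fbl (1.30). With local background subtracted, the Dclk1- median was -0.02 with 2 higher and 2 lower. The family and partners of Myc had 0 higher and 0 lower of 12 in both, with medians of 0.06 and 0.01.

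**Figure D4:**
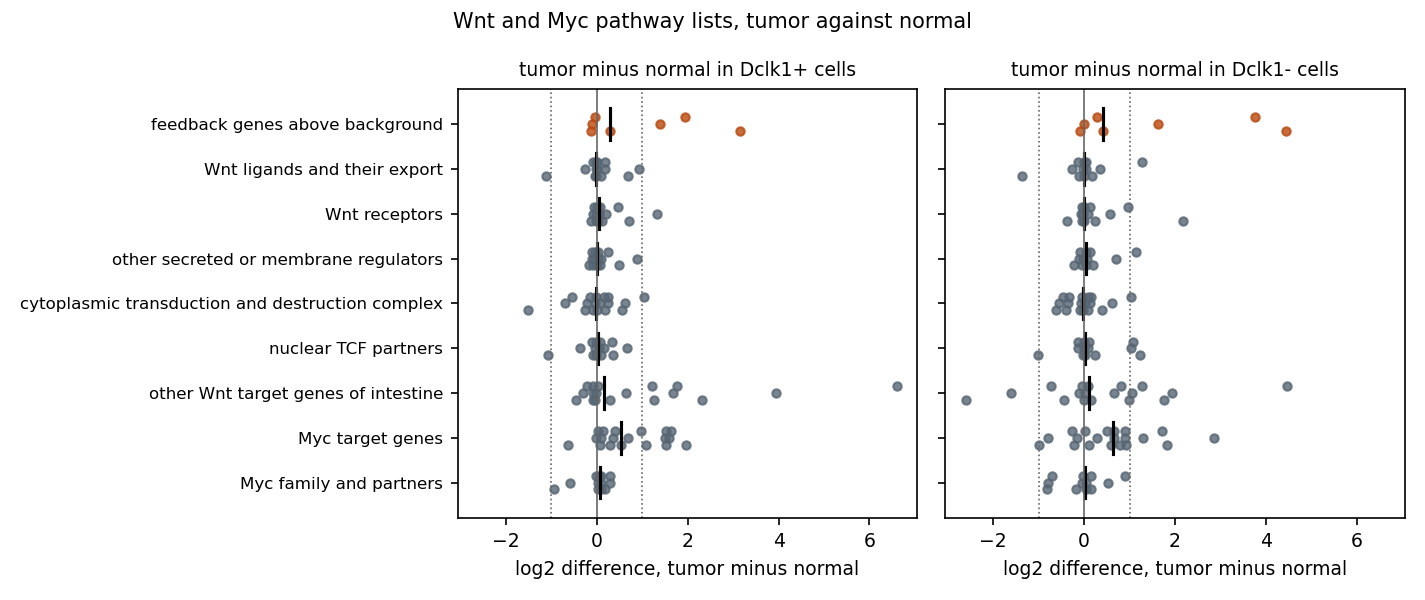
Log2 difference, tumor minus normal, of each gene above background on either array (points) by list, with the list's median (black bar), in Dclk1+ (left) and Dclk1- cells (right). Dotted lines mark 2-fold. Nkd1, Wif1 and Notum are the 3 feedback genes to the right of 2-fold in each panel. The medians of ligands, receptors and transducers, many of them dim, lie near 0.

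The genes nearest in pattern to Nkd1 and Wif1 over the 4 arrays were looked up. Likeness was the root mean square difference of log2 levels after each gene was centred on its mean over the 4 arrays, as a description without a test. Nearest to Nkd1 were Tesc, a calcium-binding protein (0.25), Ctsl, a lysosomal protease (0.29), and Bex1 (0.31). For Tesc the tumor samples read 4753 (Dclk1-) and 5296 (Dclk1+), and the normal samples 292 (Dclk1-) and 843 (Dclk1+). Nearest to Wif1 were Pf4, a chemokine of platelets and myeloid cells (0.32), Mt2, a metallothionein (0.32), and Anxa8, an annexin (0.44). Pf4 was at 599, 153, 10.9 and 29.9 in the same order of samples. Wif1 and Nkd1 were each other's nearest member, 0.71 apart. The nearest non-members were picked from far more genes than there are members, so that they lay nearer says nothing about the members.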

How the data were processed

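Each sample was hybridised to 1 one-colour (Cy5) array of 23473 probes. Per the file headers, the deposited scanner files give a median intensity and a local background for each spot. The deposited series table holds normalised intensity values that proved to be a straight line of the spot intensity on each array, with a constant subtracted and dim probes left empty. The sources used here do not name its software or the genome build of the array. The listed probes of each array have a median of 25. All sample columns of this table were used.

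Spot intensity was corrected with limma 3.58.1 in R 4.3.3 (normexp, offset 50, no local background), control and flagged spots were left out, arrays were quantile normalized, and log2 taken. Probe symbols were brought to RefSeq (GRCm38.p6) names: 12622 were current, 3947 were a synonym of 1 gene, 59 of several and 3 unmatched, and 6842 probes had no name. A gene took its brightest probe. A gene was called where it was at least 2-fold apart and above background on either array. Where only 1 array was above background, the fold is a lower bound. With 1 array a group, no p-value exists; precision is limited by the number of arrays. The steps other than local background subtraction were tested on simulated data. Changes were planted only in probes well above background, so dim genes were not covered.

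The 8 members and all lists were chosen with earlier results of these data known. Text names all members, and from each list the genes called in tumor against normal (at most 5 a list and comparison, by size) plus Tcf7l1, Tcf7l2, Ctnnb1 and Lgr5. Tcf7l1 was not among the named probes and was not analysed here. For members with a log2 range of at least 2, the 3 nearest other genes are named. Marker sums by sample are given for the lists named beside a result, and B cell markers summed to 100 to 334 and endothelial markers to 38.9 to 105.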

Additional observations from a re-analysis of the deposited data

Results flagged for a closer look

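Nkd1 differed between Dclk1+ and Dclk1- cells in opposite directions in the tissues: the log2 difference was -0.57 in tumor and 0.71 in normal epithelium. The difference between these values was not tested, since each rests on 2 arrays. Over 8 other ways of processing it was -0.90 to -0.32 in tumor and 0.32 to 1.98 in normal epithelium. The SD between probes of a gene was 0.39 and 0.79 in these comparisons. The smallest size looked for, 0.5 in both tissues, was chosen after the values of the members were seen.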

How the results depend on the processing

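No paired analysis was possible because each group has 1 array. Of the 256 values of single members under 8 alternatives, 208 kept their sign and their side of the 2-fold mark, 21 passed the mark and 3 fell below it. In all 24 changed sign. Of these, 22 were differences under the mark, at most 0.14 in size, and the other two were called differences of Wif1 that reversed with local background subtracted: -0.056 for tumor minus normal in Dclk1- cells and 0.70 for Dclk1+ minus Dclk1- in tumor. The 3 that fell below were Wif1 in Dclk1+ cells with local background subtracted (0.61) and Notum averaged over probes (0.76 and 0.91). For tumor minus normal in Dclk1+ cells, 0 lower became 1 with the blank mean subtracted and 2 with the deposited values, and 3 higher became 4 with either of these and 1 at 4-fold. In Dclk1- cells, 3 higher became 5 with the blank mean subtracted, 5 with the deposited values and 2 at 4-fold, and 0 lower became 1 and 1. In both, 3 higher became 2 with local background subtracted and with probes averaged. For Dclk1+ minus Dclk1- in tumor, 1 lower became 2 with the blank mean subtracted, 2 with the deposited values, 0 with local background subtracted and 0 at 4-fold. In normal epithelium, 0 higher became 1 with an offset of 16, 1 with the blank mean subtracted, 1 with no correction, 1 at 1.5-fold and 3 with the deposited values, and 0 lower became 1 with the blank mean subtracted and 1 with the deposited values. The cause of these moves was not tested. Over all genes, the 549 higher and 540 lower in Dclk1+ cells became 1995 and 2382 with the blank mean subtracted and 1743 and 3494 with the deposited values; in Dclk1- cells, 719 and 647 became 2320 and 2311, and 1804 and 3609. The deposited values move the median of all genes for tumor minus normal to -0.40 and -0.50, and the share of calls that are higher from 50.4% and 52.6% to 33.3% and 33.3%. In tumor, that share for Dclk1+ minus Dclk1- went from 45.3% to 24.5% with median scaling and 61.9% with the deposited values, and in normal epithelium from 48.9% to 59.3% with the deposited values. Signal over background limits Axin2, Lef1 and Tcf7, which were below it on 2 or 3 of the 4 arrays.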

Other observations

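Some genes of the wider pathway also differed between Dclk1+ and Dclk1- cells of normal epithelium; they are named here after their values were seen. Dvl1, a Dishevelled, was at 926 in Dclk1+ normal and 169 in Dclk1- normal, a log2 difference of 1.73. Chd8 was at 459 against 87.3 (1.54), and Smarca4 at 1587 against 366 (1.52). In tumor the same genes differed by 0.57, 0.66 and 0.65. Among the Wnt targets, 0 were higher and 4 lower of 18 in Dclk1+ cells of normal epithelium, where 5.66% and 5.92% of genes were. The lower ones were Birc5 (-3.63), Ccnd2 (-2.89), Ephb3 (-2.62) and Mmp7 (-2.57).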
